A study of Mus musculus with 120 samples.

Results

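Semaphorins, plexins, neuropilins, Slits, Robos, srGAP proteins, netrins, netrin-Gs and the netrin receptors Dcc, Neo1 and Unc5 were examined as a set of 51 mouse genes chosen by family. The set was chosen with earlier results of these data known. A 1 kb window was given to a gene when it overlapped the RefSeq gene body or lay within 10 kb of it. All 51 genes were found among the 21631 coding genes on X and the autosomes. Of these 51 genes, 32 had at least 1 window, and together they held 47 of the 8961 windows in the authors' deposited table. Whole-genome bisulfite sequencing, which reads methylated cytosine as the cytosine that survives conversion, was run on 120 libraries of hippocampus and blood. One genotype was wild type and the other APP-nlgf, a knock-in whose own App gene carries a humanised amyloid-beta sequence with familial Alzheimer mutations and forms plaques with age. Tissue, genotype and postnatal week (3, 8 or 24) gave 12 groups of 10 libraries, 5 from males and 5 from females, and no strain or further treatment is given in the labels. The genotypes were compared separately in each tissue at each week, with sex as a covariate, which gave 6 comparisons.

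Each listed window carries a difference in methylation between the genotypes, in percentage points, with its p and adjusted p. Only called windows are listed, and tests on the list found every adjusted p under 0.1 and every difference at least 10 points in size. Methylation levels, coverage and values of single libraries were not analysed here, so depth is unknown, no spread between animals can be given, and the labelled tissues could not be checked against marker genes. A gene with no window may not differ, may have missed a threshold or may have been thinly covered. The sign is read as APP-nlgf minus wild type from the name of the comparison alone, and each direction below would turn if that order were reversed. Both tissues are mixtures of cells, and a different mix cannot be told apart from a different methylation within cells. Positions are on mm10, and exons and introns were not separated.

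Semaphorins are secreted or membrane-bound ligands that bind plexins, mostly to repel a growing axon, and class 3 semaphorins need a neuropilin as partner receptor. Slits bind Robo receptors, which recruit srGAP proteins that act on membrane shape, and this pair keeps commissural axons from crossing back over the midline. Netrin attracts axons through Dcc and repels them where an Unc5 receptor takes part. In hippocampus these systems lay out mossy fibre and entorhinal projections and later shape spines, and in blood several semaphorins and plexins act in contacts between immune cells.

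A larger share of guidance genes than of coding genes had a window in each comparison, and guidance genes are long. Over all comparisons 62.7% of guidance genes had a window, beside 26.7% of coding genes. In hippocampus 4 of 51 genes had a window at week 3 (2.60% of coding genes), 4 at week 8 (1.74%) and 6 at week 24 (2.43%). In blood 4 had a window at week 3 (2.79% of coding genes), 17 at week 8 (19.5%) and 5 at week 24 (1.25%). The median guidance gene is 123.1 kb long and the median coding gene 17.3 kb. Guidance genes with a window had a median length of 187.3 kb and those without one 28.98 kb. Under 100 kb, 6 of 22 guidance genes (27.3%) had a window in blood at week 8 beside 18.1% of coding genes. In hippocampus 1 of these 22 had one at week 3 (1.74% of coding genes of that length), 0 at week 8 (0.989%) and 1 at week 24 (1.59%). For blood the counts were 1 at week 3 (1.77%) and 0 at week 24 (0.739%). Among genes of at least 100 kb, 3 of 29 guidance genes (10.3%) had a window in hippocampus at week 3 beside 9.39% of coding genes, and in blood at week 3 the figures were 10.3% and 10.8%. The figures were 13.8% and 7.66% in hippocampus at week 8, from 4 genes, and 37.9% and 30.5% in blood at week 8. They were 17.2% and 9.11% in hippocampus at week 24 and 17.2% and 5.27% in blood at week 24, each from 5 genes. Counted per Mb of gene and flank, guidance genes held 0.323 windows in hippocampus at week 3 beside 0.395 for coding genes, and 1.78 beside 3.37 in blood at week 8. The same density was 0.404 beside 0.264 in hippocampus at week 8, 0.485 beside 0.372 in hippocampus at week 24, 0.404 beside 0.423 in blood at week 3 and 0.404 beside 0.186 in blood at week 24. Because the set was chosen with earlier results of these data known, these shares are a description only. Whether the guidance genes as a set differ from other genes was not tested.

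**Figure D1:**
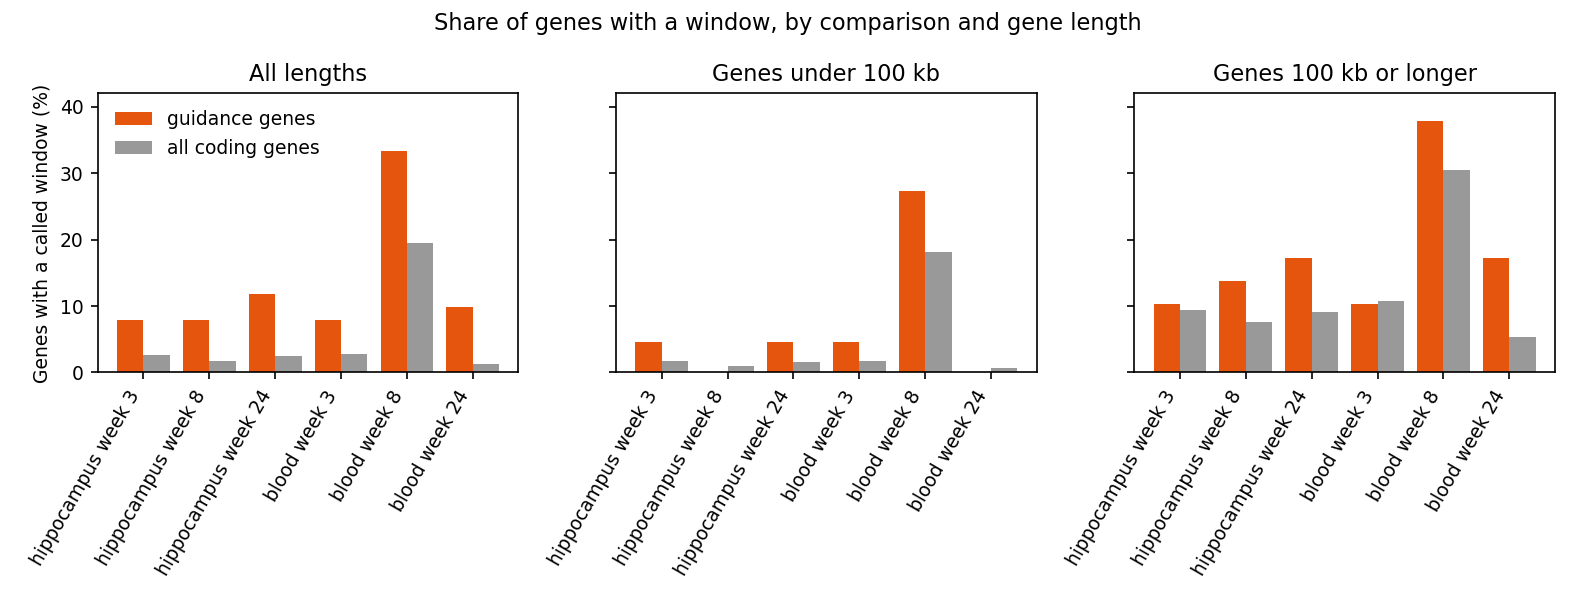
Share of genes with a called window (y axis, percent) in each of the 6 comparisons (x axis), for the 51 guidance genes (orange bars) and all 21631 coding genes (grey bars), for all lengths (left), for genes under 100 kb (middle) and for genes of 100 kb or longer (right). In blood at week 8 the share was 33.3% of guidance genes beside 19.5% of coding genes, and 37.9% beside 30.5% among the longer genes.

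Signs differed between the comparisons. All 22 windows in blood at week 8 were lower in APP-nlgf and all 5 in blood at week 24 were higher. The whole lists leaned the same way, with 88.9% lower in blood at week 8 and 17.5% lower in blood at week 24. Of the windows given to coding genes, counted once per gene, 95.6% were lower in blood at week 8 and 17% in blood at week 24. Lower windows in blood at week 8 were listed for 17 guidance genes (18.8% of coding genes), and higher windows in blood at week 24 for 5 (1.04% of coding genes). In hippocampus 3 of 4 windows were lower at week 3, where 70.5% of the whole list was, and 2 of 6 at week 24, where 41.4% was. At week 8 in hippocampus 4 of 5 windows were lower, beside 45.4% of the whole list. Blood at week 3 had 2 lower and 3 higher windows. Sizes can be set beside the lists as a whole. The median absolute difference of guidance windows was 11.7 points in hippocampus at week 3 and 11.1 points in blood at week 8, beside 13.8 and 11.7 points over the whole lists. The 22 windows in blood at week 8 all had an adjusted p under 0.05, and 8 of them under 0.001, where 71.1% of the whole list was under 0.05. In hippocampus 7 of 15 guidance windows had an adjusted p under 0.05 and none under 0.001. Over the whole hippocampal lists 36.1% were under 0.05 at week 3, 29.6% at week 8 and 44.6% at week 24.

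**Figure D2:**
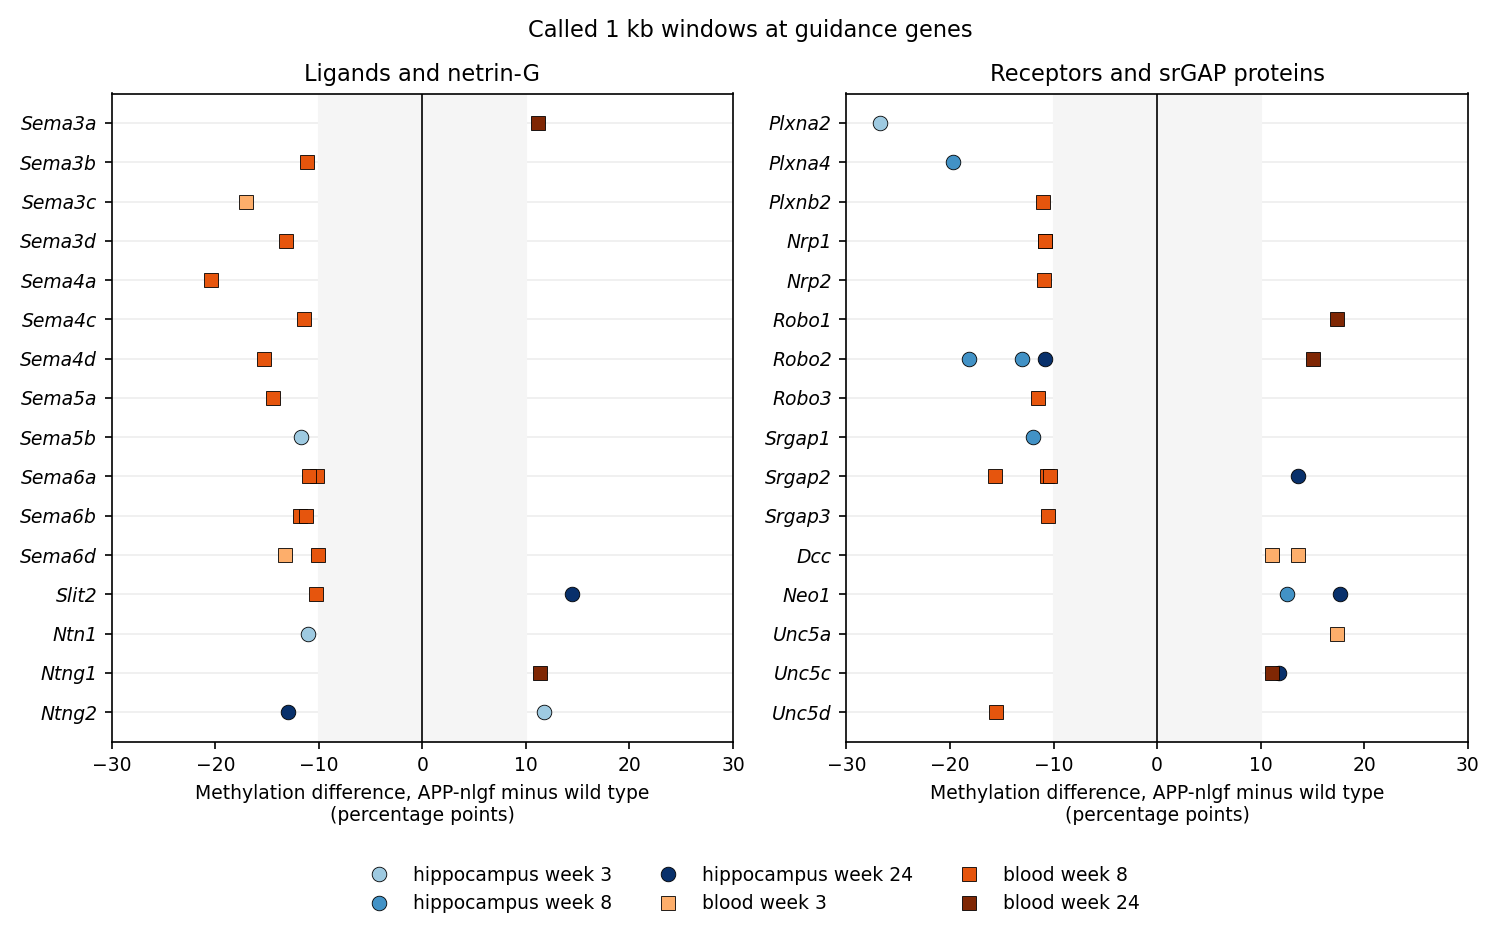
Methylation difference of each of the 47 windows (x axis, percentage points, APP-nlgf minus wild type) by gene (y axis), for ligands with netrin-Gs (left) and receptors with srGAP proteins (right). Circles are hippocampal and squares blood windows, darker shades are later weeks, and no window can lie in the grey band because the list starts at 10 points. Orange squares of blood at week 8 all lie left of 0, and the 2 windows of Nrp1 coincide.

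Semaphorin genes, the largest of the families, gave the most windows, nearly all from blood. Of 20 semaphorin genes 12 had a window, beside 62.7% of all 51 guidance genes and 26.7% of coding genes. Blood held 14 of their windows and hippocampus 1, and 14 of the 15 were lower in APP-nlgf. The list of blood at week 8 alone held 4526 of all 8961 windows. Blood at week 8 gave 11 windows at 9 semaphorin genes, in a comparison where 33.3% of guidance genes and 19.5% of coding genes had a window. The largest difference, -20.4 points (chr3:88459001-88460000, adjusted p = 0.00190), lay over a listed start of Sema4a, a membrane ligand that costimulates T cells, in the authors' deposited table. For Sema4d, which encodes the lymphocyte protein CD100 and the ligand of plexin-B1, the authors' deposited table gives -15.3 points (chr13:51791001-51792000, adjusted p = 0.00345), about 2.01% of the way into the gene. For Sema4c, a ligand of plexin-B2, it gives -11.4 points (chr1:36557001-36558000, adjusted p = 6.28e-05), over a listed start in the authors' deposited table. The class 4 genes with immune roles, Sema4a and Sema4d, thus held 2 of the 4 windows of at least 15 points among guidance genes in this comparison, and those of Srgap2 and Unc5d were the other two. That pick was made after the values were seen.

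The other semaphorin windows of blood at week 8 were between -10.03 and -14.5 points. Sema3d, a secreted class 3 ligand, had -13.2 points over its start (chr5:12383001-12384000, adjusted p = 0.000420) in the authors' deposited table. Sema5a, a membrane ligand with thrombospondin repeats, had -14.5 points close to its far end, 97.4% of the way along the gene, in the authors' deposited table. Sema6a, a membrane ligand of plexin-A2 and plexin-A4, had 2 windows at an annotated gene boundary and 2 kb further inside, with -10.9 points (adjusted p = 2.54e-05) and -10.1 points (adjusted p = 0.000312) in the authors' deposited table. The 2 windows of Sema6b lay outside the gene, with -11.8 points 2.09 kb past its end and -11.2 points 8.66 kb before its start in the authors' deposited table, and the former was 0.946 kb from the start of Lrg1. The Sema3b window, with -11.1 points in the authors' deposited table, was 9.67 kb away and covered the start of Ifrd2. The Sema3b window was shared with 5 other coding genes, and the first Sema6b window with 2.

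Semaphorin windows of the other comparisons lay inside long genes or past their ends. Sema6d, a ligand of plexin-A1, was lower in blood at week 3 at -13.2 points (adjusted p = 0.0877) and, 74 kb further along, at week 8 at -10.03 points (adjusted p = 0.0363) in the authors' deposited table. Sema3c, a secreted ligand, had -17.1 points (adjusted p = 0.0843) in blood at week 3, 5.73 kb past its end, in the authors' deposited table. Sema3a, the founding secreted repellent, held the only higher semaphorin window, 11.1 points (chr5:13301001-13302000, adjusted p = 0.0710) in blood at week 24 in the authors' deposited table. Sema5b had the only hippocampal one, -11.7 points (chr16:35589001-35590000, adjusted p = 0.0597) at week 3 in the authors' deposited table. No window was listed for Sema3e, Sema3f, Sema3g, Sema4b, Sema4f, Sema4g, Sema6c or Sema7a.

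Plexin-A genes held the 2 largest hippocampal differences among the 51 guidance genes. Plxna2, a receptor of Sema6a with a part in laying out mossy fibres, had -26.8 points at week 3 (chr1:194633001-194634000, p = 2.87e-05, adjusted p = 0.0649) in the authors' deposited table. That window lay 13.2 kb from the start of the gene and had the largest difference of all 47 windows. Plxna4, a receptor of class 3 and class 6 semaphorins, had -19.7 points at week 8 (chr6:32331001-32332000, p = 4.40e-05, adjusted p = 0.0935) in the authors' deposited table. Both adjusted p are on the weak side of the list, and no window of either gene was listed at another week. The only other plexin was Plxnb2, the receptor of Sema4c, with -11.02 points in blood at week 8 (chr15:89173001-89174000, adjusted p = 8.78e-06) over an inner listed start in the authors' deposited table. Windows were absent at Plxna1, Plxna3, Plxnb1, Plxnb3, Plxnc1 and Plxnd1, of which Plxna3 and Plxnb3 lie on X.

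Both neuropilin genes, which encode the partner receptors of class 3 semaphorins, were lower in blood at week 8. In that comparison 18.8% of coding genes had a lower window. Nrp1, also a receptor for vascular endothelial growth factor, had adjoining windows at -10.8 points each (chr8:128357001-128358000 and chr8:128358001-128359000) in the authors' deposited table. The second of these, with an adjusted p of 5.88e-06, had the smallest adjusted p of all guidance windows in the authors' deposited table. Nrp2 had -10.9 points (adjusted p = 0.0286) 2.68 kb from its start in the authors' deposited table.

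Windows at starts were confined to blood at week 8 among the guidance genes whose start is listed. RefSeq promoter entries of GRCm38.p6, which shares mm10 coordinates, were found for 42 of the 51 genes. In blood at week 8, 7 of these 42 had a lower window within 1 kb of a listed start, beside 10.1% of the 17274 coding genes with an entry. Those 7 genes were Sema3d, Sema4a, Sema4c, Plxnb2, Nrp1, Robo3 and Srgap2. Counting windows in place of genes, 9 of 18 guidance windows of this comparison lay at a start, meaning within 1 kb of it, beside 46.9% of the window and gene pairs of coding genes. The 250 bases before the listed starts that a window reached are printed so that the CpG sites in them can be seen. Capitals mark CpG dinucleotides, the main sites of DNA methylation in mammals, and the bases run from 5′ to 3′ on the strand of the gene. Robo4, the neighbour of Robo3 with no window, is shown as well.
Sema4a outer promoter, chr3:88459102-88459351, minus strand: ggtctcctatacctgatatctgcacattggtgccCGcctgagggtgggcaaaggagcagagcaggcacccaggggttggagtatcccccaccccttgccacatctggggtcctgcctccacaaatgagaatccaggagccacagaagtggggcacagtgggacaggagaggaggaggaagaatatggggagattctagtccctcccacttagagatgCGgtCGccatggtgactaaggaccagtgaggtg
Sema4a inner promoter, chr3:88458885-88459134, minus strand: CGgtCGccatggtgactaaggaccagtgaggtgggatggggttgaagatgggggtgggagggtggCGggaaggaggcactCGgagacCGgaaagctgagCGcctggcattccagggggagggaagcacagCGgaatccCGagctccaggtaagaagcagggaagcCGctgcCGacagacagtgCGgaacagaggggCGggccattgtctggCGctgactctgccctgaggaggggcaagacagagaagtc
Sema4c promoter, chr1:36557558-36557807, minus strand: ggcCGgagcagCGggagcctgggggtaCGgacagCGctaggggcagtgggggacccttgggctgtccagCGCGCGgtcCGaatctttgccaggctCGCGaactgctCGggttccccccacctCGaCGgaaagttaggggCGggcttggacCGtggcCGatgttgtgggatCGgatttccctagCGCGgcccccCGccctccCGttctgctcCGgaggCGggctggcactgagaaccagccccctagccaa
Sema3d promoter, chr5:12382916-12383165, plus strand: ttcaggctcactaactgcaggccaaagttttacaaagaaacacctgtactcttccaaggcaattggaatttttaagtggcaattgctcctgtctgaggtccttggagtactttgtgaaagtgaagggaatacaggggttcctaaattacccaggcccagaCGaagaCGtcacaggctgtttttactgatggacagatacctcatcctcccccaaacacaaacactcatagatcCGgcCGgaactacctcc
Nrp1 promoter, chr8:128358823-128359072, plus strand: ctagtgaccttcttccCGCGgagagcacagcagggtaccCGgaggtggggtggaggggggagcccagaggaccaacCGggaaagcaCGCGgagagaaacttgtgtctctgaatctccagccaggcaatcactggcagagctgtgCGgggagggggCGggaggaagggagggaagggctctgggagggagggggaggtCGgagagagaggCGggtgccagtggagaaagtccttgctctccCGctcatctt
Plxnb2 promoter, chr15:89173952-89174201, minus strand: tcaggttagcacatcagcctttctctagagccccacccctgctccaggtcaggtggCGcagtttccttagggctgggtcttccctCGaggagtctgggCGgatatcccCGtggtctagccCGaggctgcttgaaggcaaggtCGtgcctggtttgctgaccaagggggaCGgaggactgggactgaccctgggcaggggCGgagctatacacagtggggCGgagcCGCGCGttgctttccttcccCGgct
Robo3 promoter, chr9:37433176-37433425, minus strand: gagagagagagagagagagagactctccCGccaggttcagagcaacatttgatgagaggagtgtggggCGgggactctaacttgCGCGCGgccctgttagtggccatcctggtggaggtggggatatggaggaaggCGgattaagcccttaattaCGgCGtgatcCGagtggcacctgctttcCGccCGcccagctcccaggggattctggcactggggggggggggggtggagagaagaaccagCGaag
Srgap2 promoter, chr1:131527362-131527611, minus strand: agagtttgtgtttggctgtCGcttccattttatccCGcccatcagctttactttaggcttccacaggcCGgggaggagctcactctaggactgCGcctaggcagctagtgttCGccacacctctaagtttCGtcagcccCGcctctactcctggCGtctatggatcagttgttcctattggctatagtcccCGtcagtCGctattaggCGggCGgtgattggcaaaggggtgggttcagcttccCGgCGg
Robo4 promoter, chr9:37401722-37401971, plus strand: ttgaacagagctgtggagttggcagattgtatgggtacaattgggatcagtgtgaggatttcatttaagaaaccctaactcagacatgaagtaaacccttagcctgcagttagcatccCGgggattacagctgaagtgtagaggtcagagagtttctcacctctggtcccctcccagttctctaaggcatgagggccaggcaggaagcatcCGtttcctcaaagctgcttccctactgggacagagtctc

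The printed stretches differ widely in CpG content. The Sema4c stretch holds 23 CpG dinucleotides, all of them inside the called window. Srgap2 has 14 and Robo3 12, and both stretches lie wholly inside a window. At Sema4a, where the difference was largest, the outer stretch has 3 CpGs and the inner 13, of which 7 lie inside the window. The outermost listed stretch of Sema4a (chr3:88461183-88461432, 2 CpGs) was reached by no window. The Sema4c stretch is likewise the inner of 2, and the outer (chr1:36558382-36558631, 15 CpGs) was reached by none. Nrp1 has 11, with 8 inside the window, and Sema3d has 4, all inside. Only 49 bases of the Plxnb2 stretch, with 5 of its 13 CpGs, lie inside the window. Robo4 has 2 CpGs, below the median of 15 in the 47 guidance promoters that no window of blood at week 8 reached, so it does not stand for them. The difference given for a window is over 1 kb, so it is not the difference of these bases alone.

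The CpG content of promoters that a window reached overlapped that of the others. The 8 promoter stretches of guidance genes reached by a window of blood at week 8 had a median of 12.5 CpGs (3 to 23), and the 47 others 15 (0 to 45). Over all 21045 promoter stretches of coding genes the median was 10, and it was 17 in the 1488 of them (7.07%) that a window of blood at week 8 reached. The most CpG-rich guidance promoters, those of Neo1 with 45 and Sema3c with 39, were reached by no window in any comparison. The GC box GGGCGG, searched on both strands, was in 6 of the 8 stretches and in 65.1% of the coding promoters that a window of blood at week 8 reached. It was in 69.1% of all 55 guidance promoters and in 43.1% of all coding promoters. The E box CACGTG was in none of the 8 (9.95% of the coding promoters reached and 6.70% of all). Nor were TATAAA (4.70% and 11.7%) and TGCGCA, part of the site of the factor NRF1 (11.6% and 8.06%). These are letter matches within 250 bases and say nothing of binding.

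**Figure D3:**
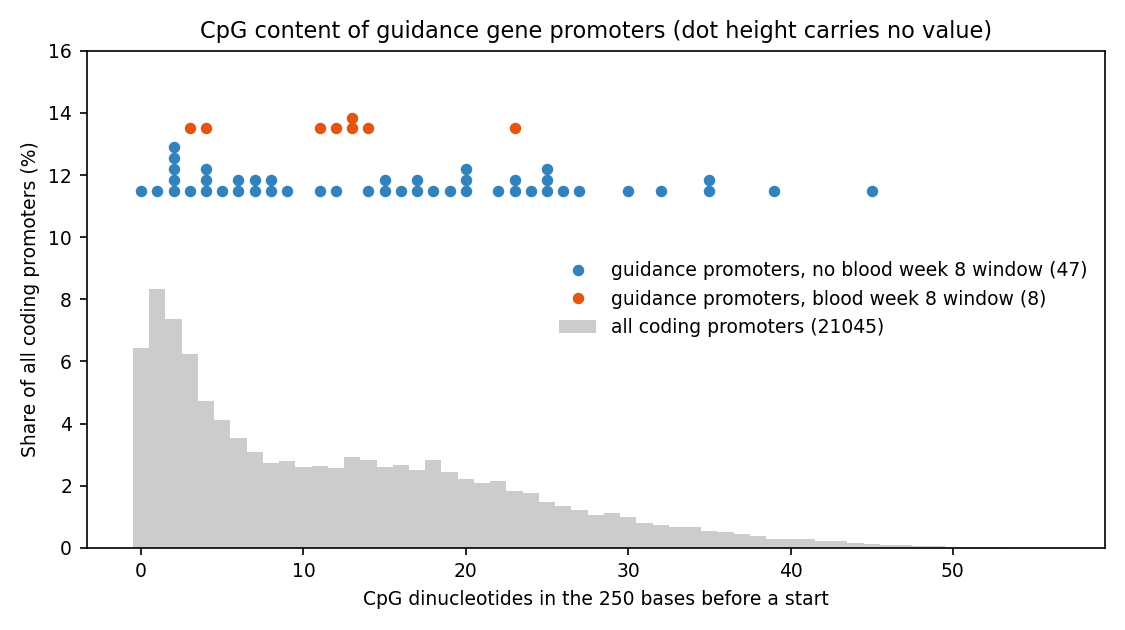
Number of CpG dinucleotides in the 250 bases before a listed start (x axis), with the share of all 21045 coding promoters at each number as grey bars (y axis, percent). Dots are the 55 promoter entries of guidance genes, set above the bars at heights without meaning, in orange for the 8 reached by a window of blood at week 8 and in blue for the 47 others. Orange dots run from 3 to 23 CpGs, within the range of the blue dots.

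Of the Slit ligands only Slit2 had windows, with opposite signs in the tissues. Slit2, a repellent for commissural and entorhinal axons, had 14.5 points in hippocampus at week 24 (chr5:48050001-48051000, p = 8.45e-08, adjusted p = 0.00401) by the authors' deposited table. No other hippocampal guidance window had a smaller adjusted p. Blood at week 8 gave -10.3 points (chr5:47985001-47986000, adjusted p = 0.00147) in the authors' deposited table, 1.85 kb from a listed start and 64 kb from the hippocampal window. No window was listed for Slit1 or for Slit3, which at 587.1 kb is one of the longer guidance genes.

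Robo2 had windows in 3 comparisons, more than any other guidance gene. This Slit receptor spans 1555 kb on chromosome 16 and had 4 windows, all inside the gene. Hippocampus at week 8 had -18.1 points (chr16:74651001-74652000, adjusted p = 0.0192) and -13.1 points (chr16:74809001-74810000, adjusted p = 0.0395) in the authors' deposited table. Hippocampus at week 24 had -10.8 points (chr16:74460001-74461000, adjusted p = 0.0454) in the authors' deposited table. Blood at week 24 had the other sign, with 15.1 points (chr16:74112001-74113000, adjusted p = 0.0400) in the authors' deposited table. The 3 hippocampal windows were thus all lower and the blood window higher, and the nearest of them were 157 kb apart. The neighbouring Robo1 was higher in blood at week 24 as well, at 17.4 points (chr16:72276001-72277000, adjusted p = 0.0685) in the authors' deposited table. Robo1 and Robo2 lie 11.9 and 9.51 Mb from App, the gene changed in the knock-in, and whether that has a part in their windows was not tested. Robo3, which lets commissural axons approach the midline, had -11.5 points over its start in blood at week 8 (chr9:37433001-37434000, adjusted p = 0.00188) in the authors' deposited table. No window was listed for Robo4, the endothelial member.

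All 3 srGAP genes, which encode the GTPase-activating partners of Robo, had a window in some comparison, beside 26.7% of coding genes. They are 229.5 to 266.9 kb long, and the median coding gene is 17.3 kb. Srgap2, which takes part in spine maturation, had 3 adjoining windows in blood at week 8 (chr1:131526001-131529000). They stood at -10.6, -10.4 and -15.6 points, with adjusted p of 0.000536, 0.00663 and 0.000616 in the authors' deposited table. They cover the start of Srgap2 and reach that of the neighbouring gene Fam72a, so the differences belong to both genes. Deep inside the same gene, 51.6% of the way along, hippocampus at week 24 had 13.6 points (chr1:131402001-131403000, adjusted p = 0.0694) in the authors' deposited table. Srgap3 had -10.6 points in blood at week 8 (adjusted p = 0.0393), 1.27 kb from its start, in the authors' deposited table. Srgap1 had -12.03 points in hippocampus at week 8 (adjusted p = 0.0884), 96.8% of the way along the gene, in the authors' deposited table.

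Netrin receptors of the Dcc family had 4 windows, all higher, in comparisons where 36.8% (blood at week 3), 45.4% (hippocampus at week 8) and 41.4% (hippocampus at week 24) of the whole lists were lower. Dcc, which carries netrin attraction, had 2 windows inside its 1098 kb, both higher in blood at week 3, at 11.1 points (adjusted p = 0.0270) and 13.6 points (adjusted p = 0.0662) in the authors' deposited table. The other member, Neo1, which also binds repulsive guidance molecules, was higher in hippocampus at 2 ages. At week 8 the window stood at 12.6 points (chr9:58945001-58946000, adjusted p = 0.0342) in the authors' deposited table. At week 24 another window, 41 kb away, stood at 17.7 points (chr9:58903001-58904000, adjusted p = 0.0824) in the authors' deposited table. Neo1 and Robo2 were the guidance genes with a hippocampal window of 1 sign at both week 8 and week 24.

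Of the 4 repulsive netrin receptors 3 had a window in some comparison, beside 26.7% of coding genes. Unc5c was higher at week 24 in both tissues, at 11.7 points in hippocampus (chr3:141686001-141687000, adjusted p = 0.0418) and, 25 kb away, at 11.1 points in blood (chr3:141660001-141661000, adjusted p = 0.0808) in the authors' deposited table. Whether the libraries of both tissues came from the same mice is not given in the labels, and the DNA of each tissue was extracted with its own kit. Unc5a had 17.4 points in blood at week 3 (adjusted p = 0.0995) in the authors' deposited table, the weakest adjusted p of the 47 windows. Unc5d had -15.6 points in blood at week 8 (adjusted p = 0.0324) in the authors' deposited table, and Unc5b had none. Of the ligands, Ntn1 had -11.1 points in hippocampus at week 3 (chr11:68313001-68314000, adjusted p = 0.0939) in the authors' deposited table, and Ntn4 had none.

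Netrin-G genes encode membrane-anchored relatives of netrin that lie on entorhinal and other axons and bind synaptic adhesion proteins. Ntng2 had windows of opposite sign in hippocampus, with 11.8 points at week 3 (chr2:29231001-29232000, adjusted p = 0.0427) and -13.0 points at week 24 (chr2:29203001-29204000, adjusted p = 0.0963) in the authors' deposited table, at places 27 kb apart. Ntng1 had 11.4 points in blood at week 24 (chr3:109793001-109794000, adjusted p = 0.00794) in the authors' deposited table, 96.4% of the way along the gene.

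No 1 kb window of a guidance gene was listed in more than 1 comparison, so repeats were of genes and not of places. Windows in more than 1 comparison were held by 7 genes, which were Sema6d, Slit2, Robo2, Srgap2, Neo1, Ntng2 and Unc5c. Hippocampus gave windows at 11 guidance genes and blood at 25, with 4 genes in both. The whole lists held 1024, 742 and 949 windows in hippocampus at weeks 3, 8 and 24, and 1153, 4526 and 567 in blood. The shares of all coding genes by tissue or in both tissues were not computed, so these counts cannot be called particular to guidance genes. Of those 4, Unc5c had the same sign in both tissues, while Slit2 and Srgap2 were higher in hippocampus at week 24 and lower in blood at week 8, and Robo2 was lower in hippocampus and higher in blood. Differences between tissues or ages were not tested, because that needs values of single libraries. No share of all coding genes with repeated windows is given here, so these repeats cannot be called particular to guidance genes.

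Windows close to a start belonged to blood at week 8. All 15 hippocampal windows lay inside gene bodies, and those of genes with a listed start were 13.2 to 282.8 kb from it. The 5 windows of blood at week 24 were 94.8 to 386.1 kb from a start. Among windows of blood at week 8, 6 covered a listed start, 3 more lay within 1 kb of one, 4 were 1 to 5 kb away and 5 were further. The Sema4d window is among these 5, at 34.3 kb from a listed start though only 2.01% of the way into the gene. For all coding genes, windows at starts were 9.17% of window and gene pairs in hippocampus at week 3, 5.05% at week 24 and 4.04% in blood at week 24. Guidance windows with a listed start numbered 3, 6 and 5 in those lists, with 0 at a start.

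**Figure D4:**
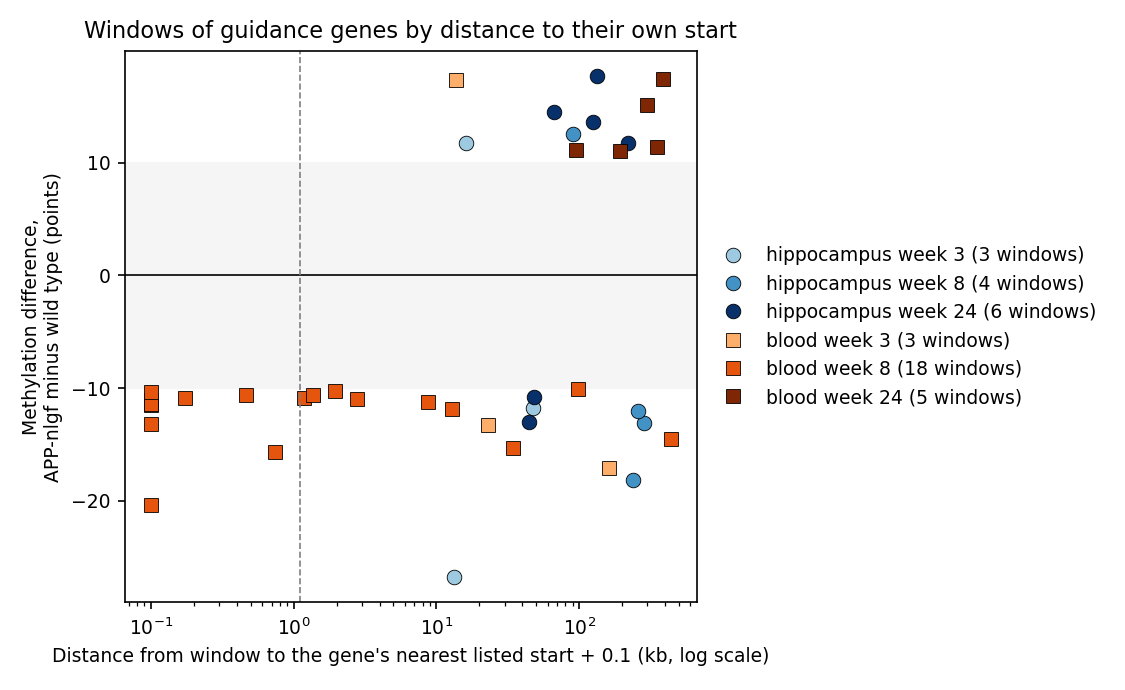
Methylation difference (y axis, percentage points, APP-nlgf minus wild type) of the 39 windows whose gene has a listed start, against their distance to the nearest such start (x axis, kb plus 0.1, log scale), with circles for hippocampus, squares for blood and a dashed line at 1 kb. Left of the line are only lower windows of blood at week 8, and all windows of hippocampus and of blood at week 24 lie beyond 13 kb.

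Other genes of these pathways, 66 in 3 lists, are described by the same rule. These lists too were chosen with earlier results of these data known. They count 25 genes of semaphorin and plexin signalling, 17 of Slit and Robo signalling and 24 of netrin signalling. For blood at week 8, 16 of 66 (24.2%) had a window, beside 19.5% of coding genes, with 19 windows lower and 1 higher. Hippocampus had 3 genes at week 3 (4.55%, beside 2.6% of coding genes), 2 at week 8 (3.03% beside 1.74%) and 5 at week 24 (7.58% beside 2.43%). Blood had 2 genes at week 3 (3.03%, beside 2.79% of coding genes) and 2 at week 24 (3.03% beside 1.25%). In hippocampus at week 3 the netrin-G1 ligand gene Lrrc4c had -13.2 points (adjusted p = 0.0232), the actin oxidase gene Mical2 -11.3 points and the adaptor gene Nck2 -10.5 points in the authors' deposited table. In hippocampus at week 8 the kinase gene Pak3 on X had -29.0 points (adjusted p = 0.0737) and Mical3 11.7 points in the authors' deposited table. In hippocampus at week 24 the Dscam relative Dscaml1 had -21.8 points, the kinase gene Fyn -15.6 points, the plexin-A effector gene Farp1 -12.6 points and Mical1 12.4 points at its end in the authors' deposited table. Blood at week 3 had Dscam, which binds netrin, at -24.4 points and Met, a partner of plexin-B1, at 13.8 points by the authors' deposited table. In blood at week 8 Lrrc4c had windows of both signs, at 29.9, -16.8 and -12.5 points, and Dscam stood at -21.3 points, the GTPase regulator gene Tiam1 at -13.9 points and the adhesion gene Nrcam at -13.2 points in the authors' deposited table. Dscam and Tiam1 lie on chromosome 16, as App does, and whether that has a part in their windows was not tested. Blood at week 24 had the Robo3 ligand gene Nell2 at -20.8 points and Lrrc4c at 17.9 points in the authors' deposited table. Lrrc4c and its netrin-G partner Ntng1 were both higher there, in a list of which only 17.5% was lower. Whether such pairs move together was not tested.

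Sema3b, Sema3c and Sema6b counted through windows outside the gene alone. The furthest window inside it was that of Sema3b at 9.67 kb. Just outside lay 2 windows of blood at week 8 near Sema4g, at 11.6 kb with -13.2 points (adjusted p = 0.000106) and at 13.6 kb with -11.5 points in the authors' deposited table. Of the 47 windows 41 overlapped a gene body and 6 did not, and 7 were shared with another coding gene.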

How the data were processed

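Methylation of DNA was read with bisulfite sequencing of the genome in 120 libraries, which were grouped from their titles by tissue, genotype and week. Per the submitters' processing notes, the tools were Bismark, methylKit, Trim Galore and FastQC and the build was mm10. For versions, coverage filter and adjustment method no statement was found in the sources used here. P-values and adjusted p-values are those deposited by the authors, for 1 kb windows of 6 comparisons, and the methylation difference is as deposited, in percentage points. The authors fitted sex as a covariate, per the series' design text. The columns used with values of single libraries numbered 0, so no spread, interval or test over animals could be computed, and unknown depth stands behind each value.

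Windows were assigned with Python 3.11.15 and pandas 2.3.3 to RefSeq genes of GRCm38.p6 (overlap, or a gap of at most 10 kb), and the assignment was tested on simulated windows. Starts and promoter bases came from RefSeq promoter entries, matched by gene identifier for 42 of 51 guidance genes. That table is not complete, so distances are to the nearest listed start. The 9 windows on unplaced scaffolds were left out. All guidance genes with a window are named, and up to 4 pathway genes per comparison by size. The guidance genes and lists were chosen with earlier results of these data known. Alternatives changed the distance, thresholds, gene ends, background, merging and, added after the values were seen, chromosome 16.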

Additional observations from a re-analysis of the deposited data

How the results depend on the processing

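Of 55 recomputed values 40 stayed within 1.5 times the value reported. Keeping windows with an adjusted p under 0.05 left 1 guidance gene in hippocampus at week 3, 2 at week 8 and 3 at week 24, and 1 and 2 in blood at weeks 3 and 24, while blood at week 8 stayed at 17. Coding genes at that threshold were 1.04%, 0.596% and 1.17% in hippocampus at weeks 3, 8 and 24, and 1.44%, 16.3% and 0.421% in blood. Keeping windows of at least 15 points left 1, 2 and 1 genes in hippocampus at weeks 3, 8 and 24, 2, 4 and 2 in blood, and 11 in any comparison. Coding genes at that size were 0.920%, 0.509% and 0.901% in hippocampus, and 1.16%, 1.36% and 0.398% in blood. Without windows at the ends of coding genes, 12 of 22 lower windows of blood at week 8 were left, at 12 genes (6.66% of coding genes). Without chromosome 16, 3 genes were left in blood at week 24. With all genes as background, 12.3% had a window in blood at week 8. Gene bodies alone, a 5 kb limit and merged windows moved no count past 1.5 times. The cause was not tested where fewer windows do not show it. No paired analysis was possible because the values used here are per comparison, with none of single libraries among them. Depth limits every value by an unknown amount.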
